A study of Mus musculus with 33 samples.

Results

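C-type lectins are the sugar-binding and related receptors that carry the C-type lectin fold, and 40 of the 24421 genes counted in these libraries were taken as the C-type lectin set because their symbol begins with Clec and a digit or with Cd209, or is Cd207. Bulk RNA-seq was performed on macrophages (macs) sorted from mice of 6 to 8 weeks on a C57Bl/6 background, of mixed sex. Kupffer cells (KCs), the resident macs of the liver, came from Zeb2fl/fl littermates without Cre (CRE- KCs, n = 6) and from Clec4f-crexZeb2fl/fl mice, in which they were divided by Tim4 into Tim4+ KCs (n = 6) and Tim4- KCs (n = 6). Alveolar macs (AMs), the resident macs of the lung airspace, came from Zeb2fl/fl littermates (CRE- AMs, n = 5) and from Itgax-crexZeb2fl/fl mice, divided by CD11b into CD11b- AMs (n = 5) and CD11b+ AMs (n = 5). All groups therefore carry floxed alleles of Zeb2, a transcriptional repressor. The CRE+ groups differ from the controls by the Cre allele as well as by the loss of Zeb2. The labels divide only the CRE+ groups by Tim4 or CD11b, so each comparison with controls also crosses that gate. Changes by the gate and by loss of Zeb2 cannot be told apart there. The study described some Tim4- KCs of CRE+ mice as putative monocyte-derived cells that keep a copy of Zeb2. Cell origin is thus a further difference that cannot be told apart in Tim4- KCs. In another mouse model, genes the study lists as differing between monocyte-derived and embryonic KCs include Cd207, Cd209f, Clec4b1, Ccr2, Colec12, Timd4, Marco and Cd163.

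One member of the set drives the Cre itself. In the Clec4f-cre line the Cre sequence was placed in the 3' untranslated region of Clec4f behind the stop codon, so Clec4f in CRE+ KCs is transcribed from at least 1 modified allele and a change of its own transcript by that insertion or by loss of Zeb2 cannot be told apart. A few B cells also recombine in that line, Itgax-cre is active in many CD11c+ cells, and some CRE+ macs keep a working copy of Zeb2. The study identified KCs by the Clec4F protein on their surface, and the gates of these bulk libraries were not given in the sources used here.

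As background, the C-type lectins of myeloid cells divide by what lies behind the lectin domain. Dectin-1, Dectin-2, Mincle and MCL (Clec7a, Clec4n, Clec4e and Clec4d) recognise fungal and mycobacterial glycans or glycolipids. They signal through Syk, either directly or through the FcRγ adaptor, whereas DCIR (Clec4a2) carries an inhibitory motif that recruits phosphatases. Clec4F and langerin (Cd207) are endocytic receptors with neighbouring genes, the first known as a marker of murine KCs and the second as the Birbeck granule protein of Langerhans cells. The Cd209 genes are the mouse relatives of human DC-SIGN, and Clec4g and Clec14a are known as lectins of the sinusoidal and general endothelium.

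Each library held 9837240 to 24332306 reads on genes, and levels are given as CPM, the count scaled to a common library size after TMM normalisation. Values of different genes are compared only after division by exonic length. Calls come from edgeR's quasi-likelihood test and needed 0.05 as the upper bound of the adjusted p and a log2 fold change of more than 1 in size. As a check of the labels, Zeb2 had 230.3 to 338 CPM in CRE- KCs, 145 to 209.7 in Tim4+ KCs and 148 to 192 in Tim4- KCs, and in the lung it had 170.1 to 208 CPM in CRE- AMs, 85.0 to 114 in CD11b- AMs and 50.7 to 70.2 in CD11b+ AMs, so that no CRE+ sample reached a control of its tissue, although the floxed allele still gives a shortened transcript and these reads do not measure deletion. The summed level of 8 KC markers was 25813 to 30172 CPM in CRE- KCs and 414 to 623 CPM in CRE- AMs, and that of 8 AM markers was 38.6 to 77.3 and 19851 to 30310.0 CPM, so the control libraries carry the markers of their labelled cell types. In bulk libraries, fewer cells of a type and less RNA per cell cannot be told apart.

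The upstream sequences of 6 members are shown because their genes sit side by side or their transcripts moved together in the results: the neighbours Clec4f and Cd207 on chromosome 6, the pair Cd209f and Cd209g on chromosome 8, and Clec4a2 with Clec4b1 from the DCIR cluster on chromosome 6. Each is the stretch of 150 bases nearest to the RefSeq start that lies outside the untranslated regions annotated in GENCODE M21, taken from RefSeq on GRCm38.p6 (mm10) and written 5′ to 3′ on the strand of the gene. Capitals mark the letters TGAGTCA or their reverse complement, which AP-1 factors bind.
Clec4f, chr6:83656188-83656337, minus strand: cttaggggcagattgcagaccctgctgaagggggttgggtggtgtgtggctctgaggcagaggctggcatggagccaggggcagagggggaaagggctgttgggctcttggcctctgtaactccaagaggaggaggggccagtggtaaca
Cd207, chr6:83677858-83678007, minus strand: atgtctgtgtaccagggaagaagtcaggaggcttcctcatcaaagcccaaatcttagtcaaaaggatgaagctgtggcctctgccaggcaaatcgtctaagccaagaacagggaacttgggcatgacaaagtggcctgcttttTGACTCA
Cd209f, chr8:4105836-4105985, minus strand: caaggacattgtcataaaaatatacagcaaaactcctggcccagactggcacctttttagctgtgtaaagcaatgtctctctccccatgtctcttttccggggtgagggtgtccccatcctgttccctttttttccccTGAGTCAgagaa
Cd209g, chr8:4134502-4134651, plus strand: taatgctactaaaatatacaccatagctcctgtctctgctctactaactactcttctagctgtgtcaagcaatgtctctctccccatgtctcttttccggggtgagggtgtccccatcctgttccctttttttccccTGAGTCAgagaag
Clec4a2, chr6:123122472-123122621, plus strand: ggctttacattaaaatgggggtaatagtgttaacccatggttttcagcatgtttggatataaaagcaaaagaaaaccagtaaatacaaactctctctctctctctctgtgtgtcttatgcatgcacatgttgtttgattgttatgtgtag
Clec4b1, chr6:123049812-123049961, plus strand: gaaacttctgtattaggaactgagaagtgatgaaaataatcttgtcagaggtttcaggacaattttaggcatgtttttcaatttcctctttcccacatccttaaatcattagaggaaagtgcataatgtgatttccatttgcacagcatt

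Over the 250 bases before the start, Cd209f and Cd209g were 84.4% identical and shared an unbroken run of 154 bases, while Clec4f and Cd207 were 58% identical with no shared run longer than 9 bases, and Clec4a2 and Clec4b1 were 56.4% identical with none longer than 10. RefSeq starts matched 33 of the 40 members, with 36 upstream windows. In Clec4a2 and Cd209g the RefSeq start lies within the longer gene span of GENCODE. GENCODE gives Cd209g 1 exon block (4134098 to 4137707). The printed Cd209g window lies inside that block, so it is upstream of the RefSeq start only. The AP-1 and ETS letters were chosen after these sequences had been seen, and all letters were searched on both strands. Those of AP-1 lie in the windows of 4 members (Cd207, Cd209f, Cd209g and Clec2g) and in 4.46% of all 32851 windows. The letters CACCTG, an E-box that ZEB factors bind, were found in the window of 1 member (Clec2e) and in 17.2% of all windows, and the letters GGAAGT of an ETS site in those of 5 members (Cd209a, Cd209d, Clec4a2, Clec4d and Clec4f) and in 19.7% of all windows. These are matches of letters in a fixed window and say nothing of binding.

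Of the 40 members, 2 had no read in any library, 27 reached a mean of 1 CPM in at least 1 group and 20 reached 10 CPM. The filter on low counts kept 30 members in at least 1 comparison and left out 10. Members that pass it can do so through the group in which they are high, so counts below are given beside the share of all genes called the same way. Most of the set lies on chromosome 6 (25 members) or chromosome 8 (10 members).

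**Figure D1:**
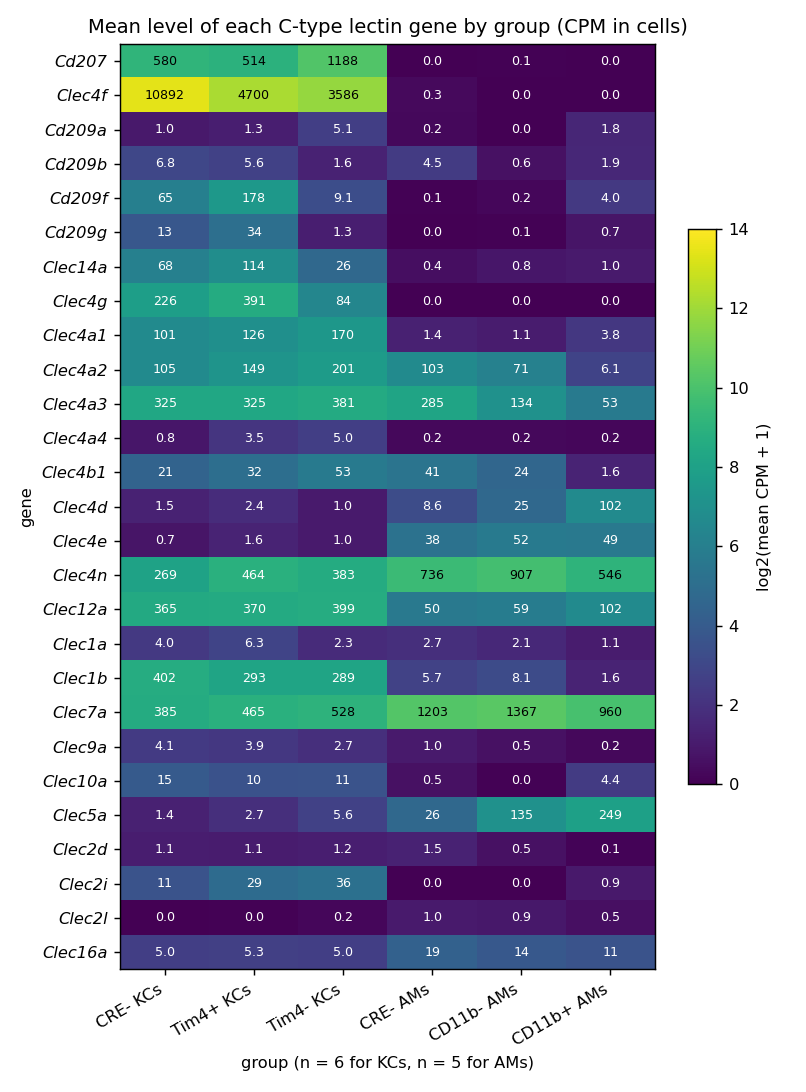
Mean CPM of the 27 members that reached 1 CPM in at least 1 group (rows) in each of the 6 groups (columns), printed in the cells and coloured on a log2(CPM + 1) scale. Clec4f stands at 10892 CPM in CRE- KCs and at 0.274 CPM in CRE- AMs, whereas Clec7a stands at 385 and 1203 CPM.

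In the control macs, most lectins tested differed between liver and lung. Per kilobase of exon, Clec4f (4408 CPM per kb) stood first in CRE- KCs, followed by Cd207 (381), Clec4a3 (245), Clec4n (189) and Clec7a (146). In CRE- AMs the order was Clec4n (518 CPM per kb), Clec7a (456), Clec4a3 (215), Clec4b1 (52.8) and Clec4a2 (35.1). Of 26 members tested, 13 were higher in CRE- KCs and 6 were higher in CRE- AMs, against 20.9% and 12.4% of the 12145 genes tested. The median log2 fold change of KCs over AMs was 1.90 over these members and 0.03 over all genes.

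Syk-coupled receptors of fungal sugars and the inhibitory DCIR were read in both macs. Clec7a, the β-glucan receptor Dectin-1, had 308 to 506 CPM (median 383) in CRE- KCs and 1295, 1206, 1136, 1208 and 1169.6 CPM in CRE- AMs, so that no KC sample reached the lowest AM sample (log2 fold change of KCs over AMs -1.62, SE 0.11, adjusted p = 1.23e-08). Clec4n, the mannan receptor Dectin-2, had 235 to 326 CPM (median 265) and 705, 725, 769, 729 and 751 CPM (log2 fold change -1.42). Clec4a2, the inhibitory DCIR, was present at 76.8 to 132 CPM (median 106) and 98.6, 104, 96.0, 114 and 101 CPM, and its difference of 0.05 on the log2 scale (SE 0.11) was no larger than the spread between samples. The glycolipid receptor Mincle, Clec4e, went the other way from the KC lectins, with 28.3, 40.9, 50.8, 36.9 and 34.4 CPM in CRE- AMs against at most 1.84 CPM in CRE- KCs (log2 fold change of KCs over AMs -5.73). Clec1b, Clec4a1, Clec2i, Clec4g, Clec14a, Cd209f, Clec4f and Cd207 all lay on the KC side with log2 fold changes above 6, and Cd209g, with no read in CRE- AMs, was at least 437-fold higher in CRE- KCs than the level that 3 reads over the AM group would give.

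Clec4f fell in both CRE+ KC groups. It had 10329 to 12006 CPM (median 10819) in CRE- KCs, 4086 to 5192 CPM (median 4753) in Tim4+ KCs and 2676 to 4062 CPM (median 3716) in Tim4- KCs. The 3 groups did not overlap: every CRE+ sample lay below every control, and every Tim4- sample below every Tim4+ sample. The fall was to 4700.3 ± 419.7 CPM (SD, n = 6) from 10892 ± 605 CPM (SD, n = 6) in Tim4+ KCs (log2 fold change -1.23, SE 0.08, adjusted p = 4.57e-09) and to 3586 ± 486 CPM (SD, n = 6) in Tim4- KCs (log2 fold change -1.62, SE 0.08, adjusted p = 4.82e-11). The step from Tim4+ to Tim4- KCs was smaller and did not pass the fold-change limit (log2 fold change -0.39, SE 0.08, adjusted p = 0.00354). Since Clec4f holds the Cre and may have been part of the sort, its fall is given as measured, and it remained the most abundant member per kilobase in every KC group (1902 CPM per kb in Tim4+ and 1451 in Tim4- KCs).

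Cd207 (chromosome 6, 83671215 to 83677857, minus strand) is the next of these genes to Clec4f (chromosome 6, 83644542 to 83656187, minus strand) and did not fall with it. It had 420.0 to 818 CPM (median 526) in CRE- KCs, 255 to 951 CPM (median 451) in Tim4+ KCs and 529.7 to 2584 CPM (median 1121) in Tim4- KCs, with 4 of the 6 Tim4- samples above every control. The Tim4+ samples spanned the control range (log2 fold change -0.20, SE 0.35, adjusted p = 0.850). Cd207 rose in Tim4- KCs over CRE- KCs (log2 fold change 1.02, SE 0.36, adjusted p = 0.0399) and over Tim4+ KCs (log2 fold change 1.22, SE 0.36, adjusted p = 0.0296), but 1 library carried much of this: replicate 1 of the Tim4- KCs had 2584 CPM, and without it neither comparison passed (against CRE- KCs, log2 fold change 0.63, adjusted p = 0.155; against Tim4+ KCs, log2 fold change 0.83, adjusted p = 0.0917). That library was also the shallowest of all 33, with 9837240 reads on genes. The first call was lost when any of 7 other libraries was left out and with DESeq2 and limma-voom. A fit that blocked on replicate number gave an adjusted p of 0.0026 while the log2 fold change fell under the limit, at 0.85. The second was lost without replicate 2, 4 or 6 of the Tim4+ KCs. In AMs Cd207 had at most 6 reads in a group.

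**Figure D2:**
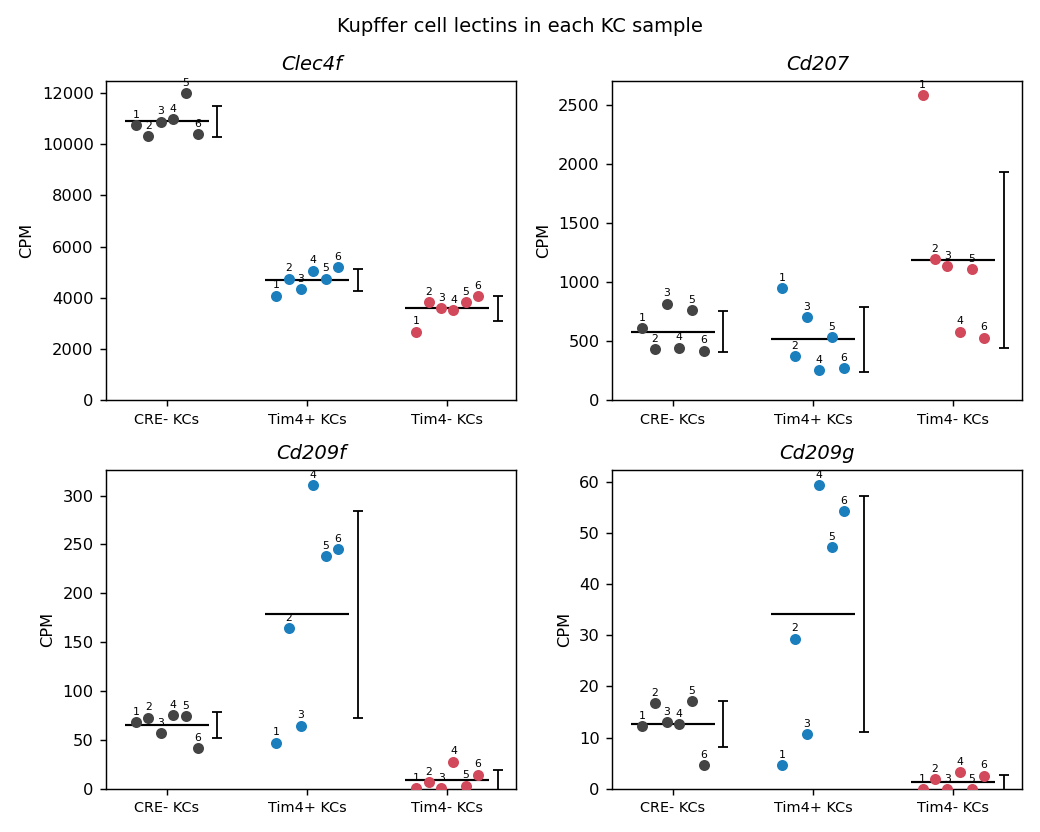
CPM (linear axes from 0) of Clec4f, Cd207, Cd209f and Cd209g in each KC sample. Numbers are replicate numbers, the line is the mean and the bar beside it is ± 1 SD, cut at 0. Clec4f separates the 3 groups, Cd207 is spread widest in Tim4- KCs, and Cd209f and Cd209g are lower in every Tim4- sample than in any other KC sample and above every control in 4 of 6 Tim4+ samples.

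Within the KC comparisons as a whole, 29 members were tested. In Tim4+ KCs 2 were higher (Clec2i and Clec4a4) and 1 was lower (Clec4f) than in CRE- KCs, against 1.94% and 0.376% of 12500 genes. In Tim4- KCs 6 were higher (Cd207, Cd209a, Clec2i, Clec4a4, Clec4b1 and Clec5a) and 6 were lower (Clec4f, Cd209b, Cd209f, Cd209g, Clec4g and Clec14a), against 3.43% and 5.39% of genes. Between Tim4- and Tim4+ KCs 1 was higher (Cd207) and 6 were lower (Cd209b, Cd209f, Cd209g, Clec4g, Clec14a and Clec1a), against 0.44% and 5.01%. The comparisons share samples, so they are not independent of each other. The median log2 fold change over the 29 members was 0.39, -0.01 and -0.08 in the 3 comparisons, beside 0.03 or less in size over all genes.

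**Figure D3:**
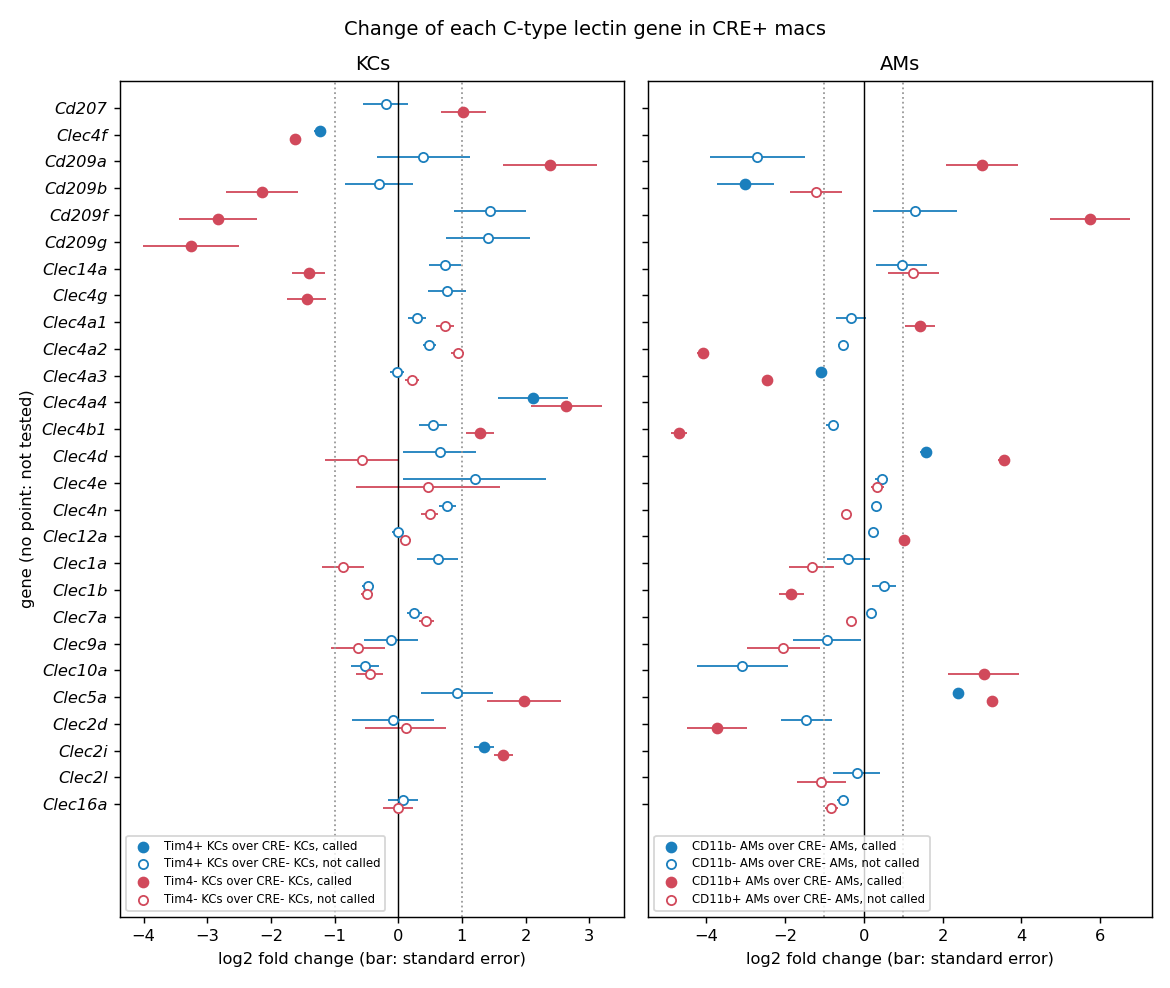
Log2 fold change (bars, SE) of the members that reached 1 CPM in at least 1 group, in CRE+ KCs over CRE- KCs (left) and CRE+ AMs over CRE- AMs (right). Filled points were called, open points were not, and dotted lines mark a log2 fold change of 1 in size. Cd209f and Cd209g lie lowest among the Tim4- KC points, and Clec4b1 and Clec4a2 among those of CD11b+ AMs.

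Of the Cd209 genes, relatives of human DC-SIGN, Cd209f, Cd209g and Cd209b fell in Tim4- KCs and Cd209a rose there. Cd209f had 41.3 to 75.2 CPM (median 70.6) in CRE- KCs, 47.3 to 311 CPM (median 201) in Tim4+ KCs and 0.651 to 27.9 CPM (median 5.26) in Tim4- KCs. Every Tim4- sample lay below every sample of the other groups (log2 fold change against CRE- KCs -2.83, SE 0.61, adjusted p = 0.00172; against Tim4+ KCs, -4.28, SE 0.64, adjusted p = 1.56e-04). The Tim4+ samples were spread: replicates 2, 4, 5 and 6 had 164, 311, 238 and 245 CPM, all above the controls, while replicates 1 and 3 had 47.3 and 64.7 CPM, within the control range. The difference of Tim4+ from CRE- KCs was not called (log2 fold change 1.45, SE 0.56, adjusted p = 0.162), though it passed when only these 2 groups were fitted (adjusted p = 0.0271).

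Cd209g showed the same order of groups. It had 4.70 to 17.1 CPM (median 12.8) in CRE- KCs, 4.56 to 59.4 CPM (median 38.3) in Tim4+ KCs and 0 to 3.29 CPM (median 0.974) in Tim4- KCs, in which 3 of 6 libraries had no read (log2 fold change against CRE- KCs -3.25, SE 0.75, adjusted p = 0.00317). Replicates 1 and 3 of the Tim4+ KCs were again the lowest of their group, at 4.56 and 10.7 CPM. The calls of Cd209g in Tim4- KCs, against CRE- and against Tim4+ KCs, were lost with limma-voom. These genes, whose upstream sequences are printed above, share 29.8% (Cd209f) and 16.6% (Cd209g) of their exonic 50-base words with each other, so reads could be split between them and they are not independent measurements.

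The other Cd209 genes had few reads. Cd209b, the SIGN-R1 of marginal zone macs, had 3.72 to 9.68 CPM (median 6.98) in CRE- KCs, 1.71 to 9.57 CPM (median 5.39) in Tim4+ KCs and 0.0423 to 4.36 CPM (median 1.14) in Tim4- KCs, where it fell (log2 fold change -2.14, SE 0.56, adjusted p = 0.00814). Its fall against Tim4+ KCs (log2 fold change -1.83, SE 0.56, adjusted p = 0.0377) was lost when any of 7 libraries was left out and when only these groups were fitted. Cd209a, the DC-SIGN of dendritic cells, had 0.219 to 2.33 CPM (median 0.819) in CRE- KCs and 0.495 to 13.4 CPM (median 4.68) in Tim4- KCs, where it rose (log2 fold change 2.38, SE 0.74, adjusted p = 0.0226), but not without replicate 1 of the Tim4- KCs (adjusted p = 0.0727) or replicate 3 of the CRE- KCs (adjusted p = 0.0510), with limma-voom (adjusted p = 0.118) or with the replicate block (adjusted p = 0.0572). Its 4 highest Tim4- values were 13.4, 5.42, 6.43 and 3.94 CPM and the other two were under 1 CPM. Of 7 dendritic cell markers, 3 were called higher in Tim4- KCs (Xcr1, Ccr7 and Cd24a), beside 3.43% of all genes. The 7 markers summed to 14.03 to 26.4 CPM in CRE- KCs, 25.0 to 47.0 in Tim4+ and 21.2 to 45.6 in Tim4- KCs. Their part in the Cd209a values was not tested. Cd209c, Cd209d and Cd209e stayed under 1 CPM on average in every group.

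Of the 8 KC markers, 1 was higher (Marco) and 1 lower (Cd163) in Tim4+ KCs, beside 1.94% and 0.376% of all genes. In Tim4- KCs 5 were lower (Timd4, Vsig4, Folr2, Marco and Cd163), beside 5.39% of all genes. Timd4, the gene of the sorted Tim4 protein, had 664 to 759 CPM in CRE- KCs, 281 to 438 CPM in Tim4+ KCs and 0.229 to 8.19 CPM in Tim4- KCs. The scavenger receptor Marco had 293 to 1115 CPM in CRE- KCs, 1178 to 1975 in Tim4+ KCs, where it rose (log2 fold change 1.39, SE 0.29, adjusted p = 0.00428), and 109 to 419.6 in Tim4- KCs, where it fell (log2 fold change -1.25). The haemoglobin receptor Cd163 instead fell in both, with 1104 to 1512 CPM in CRE- KCs, 155 to 343 in Tim4+ KCs and 35 to 74.8 in Tim4- KCs. Of 4 monocyte markers tested, 1 was higher in Tim4+ and 1 in Tim4- KCs, beside 1.94% and 3.43% of all genes. Their median log2 fold changes were 0.15 and 0.70, and Vcan was at 0 in both groups. Ccr2, a monocyte marker, had 2.28 to 7.38 CPM in CRE- KCs, 9.89 to 30.8 in Tim4+ and 57.8 to 157 in Tim4- KCs. The 6 monocyte markers summed to 77.4 to 303, 94.0 to 331 and 282 to 806 CPM in CRE-, Tim4+ and Tim4- KCs. Their part in the changes of the Cd209 genes was not tested.

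The endothelial lectins fell in Tim4- KCs together with markers of the liver endothelium. Clec4g, or LSECtin, a receptor of sinusoidal endothelial cells, had 69.7 to 364 CPM (median 235) in CRE- KCs, 238 to 663 CPM (median 299.9) in Tim4+ KCs and 67.5 to 110.3 CPM (median 85.3) in Tim4- KCs. Except for replicate 6 of the CRE- KCs, at 69.7 CPM, every CRE- and Tim4+ sample lay above every Tim4- sample (log2 fold change against CRE- KCs -1.44, SE 0.31, adjusted p = 0.00163). Clec14a, an endothelial lectin of vessel growth, had 30.2 to 102 CPM (median 74.1), 74.1 to 157 CPM (median 109) and 17.2 to 38.8 CPM (median 24.0) in the same order of groups (log2 fold change -1.41, SE 0.26, adjusted p = 4.04e-04). Neither was called in Tim4+ KCs, where the log2 fold changes were 0.77 (SE 0.30) and 0.73 (SE 0.25).

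Of 12 markers of liver endothelium, 11 fell in Tim4- KCs against CRE- KCs and 12 against Tim4+ KCs, beside 5.39% and 5.01% of all genes. Their median log2 fold changes were -1.57 and -2.13, and none was called in Tim4+ against CRE- KCs (median 0.58). Against CRE- and Tim4+ KCs, the log2 fold changes were -1.44 and -2.21 for Clec4g, -1.41 and -2.13 for Clec14a, and -2.83 and -4.28 for Cd209f. Summed, these markers had 813 to 2716 CPM in CRE- KCs, 1525 to 4628 in Tim4+ KCs and 504 to 687 in Tim4- KCs, and none was at 0 in a KC group. The libraries with the most and the least of the sum were also those with the most and the least Clec4g in CRE- KCs (replicates 3 and 6). The Tim4+ libraries with the most were replicates 2 and 3 for the sum, Clec4g and Clec14a alike. In Tim4- KCs the sum was highest in replicate 2 (687 CPM) but Clec14a in replicate 1 (38.8 CPM). The part of endothelial RNA in the levels of these lectins was not tested. Clec4g also overlaps an exon of Gm16553 on the opposite strand, and the sources used here do not say whether counting used strand.

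**Figure D4:**
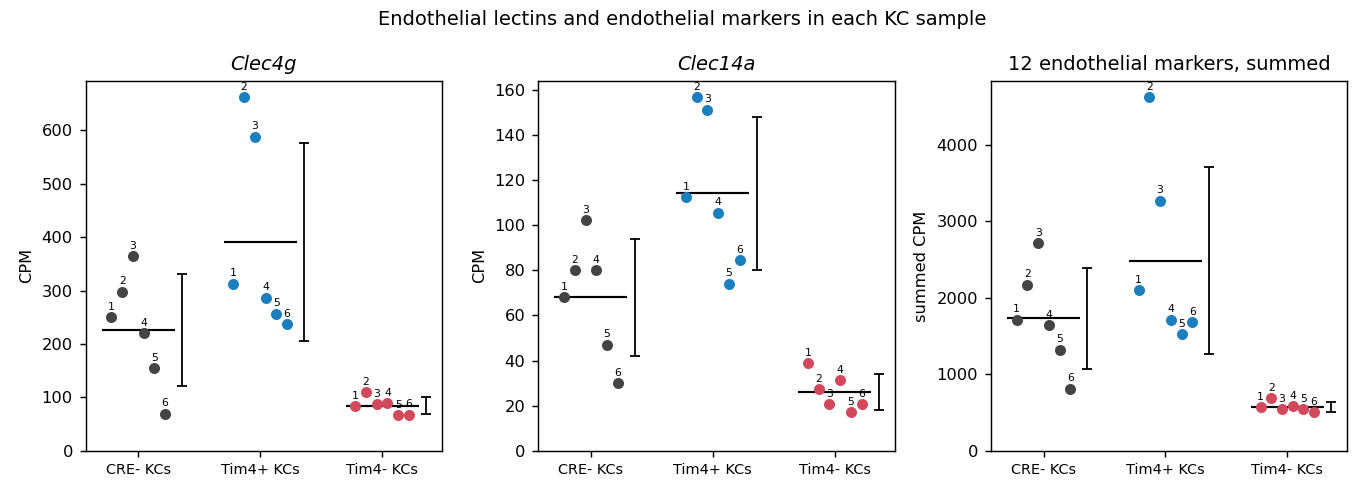
CPM (linear axes from 0) of Clec4g and Clec14a, and the summed CPM of 12 liver endothelial markers, in each KC sample. Numbers are replicate numbers, the line is the mean and the bar beside it ± 1 SD. All 3 panels show low Tim4- samples and the highest values in replicates 2 and 3 of the Tim4+ KCs.

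In AMs, 21 members were tested. In CD11b- AMs 2 were higher (Clec4d and Clec5a) and 2 lower (Clec4a3 and Cd209b) than in CRE- AMs, against 3.98% and 2.51% of 11573 genes. In CD11b+ AMs 7 were higher (Cd209a, Cd209f, Clec4a1, Clec4d, Clec5a, Clec10a and Clec12a) and 5 lower (Clec4a2, Clec4a3, Clec4b1, Clec1b and Clec2d), against 9.57% and 5.68%. Between CD11b+ and CD11b- AMs 5 were higher (Cd209a, Cd209f, Clec4a1, Clec4d and Clec10a) and 5 lower (Clec4a2, Clec4a3, Clec4b1, Clec1b and Clec2d), against 6.85% and 3.3%. These comparisons share samples as well.

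The cluster on chromosome 6 that holds Dectin-2, Mincle, MCL and the DCIR genes changed in both directions in AMs. In CD11b- AMs 1 of its 7 members tested was higher and 1 lower than in CRE- AMs, against 3.98% and 2.51% of all genes. In CD11b+ AMs 2 were higher and 3 lower than in CRE- AMs, against 9.57% and 5.68%. Clec4a2 (DCIR) had 98.6, 104, 96.0, 114 and 101 CPM in CRE- AMs, 70.7, 70.4, 74.9, 66.1 and 72.9 CPM in CD11b- AMs and 4.27, 7.97, 4.88, 4.78 and 8.58 CPM in CD11b+ AMs. The groups did not overlap, and the level in CD11b+ AMs was a small remainder of that in controls (log2 fold change -4.08, SE 0.15, adjusted p = 4.27e-14). The difference of CD11b- AMs was under the fold-change limit (log2 fold change -0.53, SE 0.13, adjusted p = 0.00418).

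Its neighbours Clec4b1, the DCAR1 receptor, and Clec4a3 fell in CD11b+ AMs too. Clec4b1 had 40.6, 41.9, 40.2, 43.1 and 41.4 CPM in CRE- AMs, 25.8, 19.9, 25.0, 23.3 and 25.6 in CD11b- AMs and 0.793, 2.35, 0.945, 1.70 and 2.28 in CD11b+ AMs, with no overlap between groups (log2 fold change in CD11b+ AMs -4.68, SE 0.21). Clec4a3 had 278, 296, 302, 307 and 241 CPM, 157, 131, 110.2, 135 and 135 CPM and 56.4, 58.4, 45.2, 46.1 and 56.9 CPM in the same order, and was called in both CRE+ groups (log2 fold change -1.09 and -2.45). Clec4a2 shares 6.69% and Clec4b1 8.69% of its 50-base words with other genes, each other among them, so some of their reads could have been split between them.

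Clec4d (MCL) went in the opposite direction. It had 6.63, 9.59, 11.9, 7.80 and 6.85 CPM in CRE- AMs, 26.1, 24.4, 27.8, 23.8 and 24.9 CPM in CD11b- AMs and 115, 94.3, 102, 87.7 and 111 CPM in CD11b+ AMs, again with no overlap (log2 fold change in CD11b- AMs 1.57, SE 0.14, adjusted p = 6.44e-08; in CD11b+ AMs 3.56, SE 0.14). Its partner Clec4e (Mincle), which pairs with it at the surface, was not called (28.3 to 50.8 CPM in CRE- AMs, 43.0 to 67.5 in CD11b- and 34.3 to 69.8 in CD11b+ AMs). Clec4n (Dectin-2) moved by less than the fold-change limit in opposite directions: it had 705 to 769 CPM in CRE- AMs, 826 to 997 in CD11b- AMs (log2 fold change 0.30) and 488 to 639 in CD11b+ AMs (-0.44), and these ranges did not overlap. Clec4a1, a relative of DCIR, was low but rose in CD11b+ AMs, from 1.39, 1.47, 0.832, 2.26 and 1.12 CPM to 4.51, 3.78, 2.73, 3.88 and 4.32 CPM (log2 fold change 1.43, SE 0.37, adjusted p = 0.00379).

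**Figure D5:**
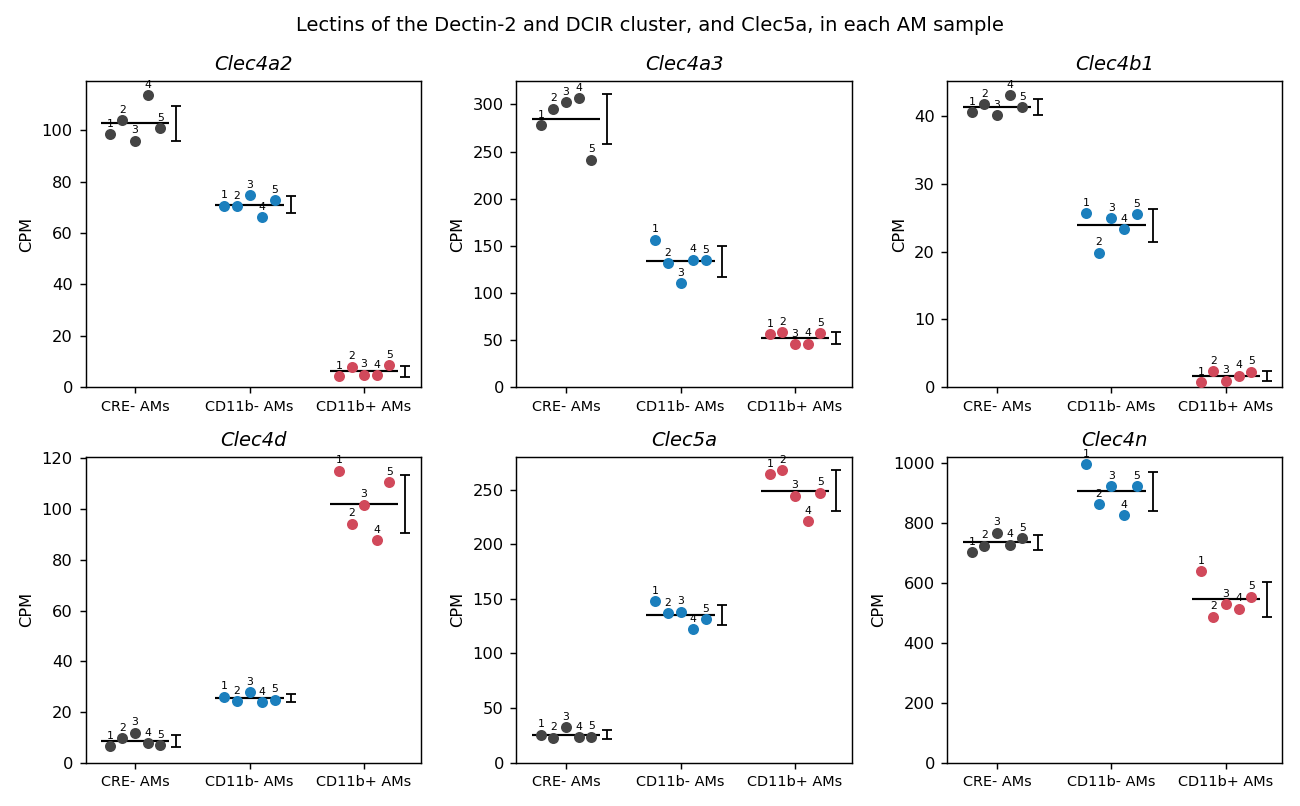
CPM (linear axes from 0) of 5 members of the Dectin-2 and DCIR cluster and of Clec5a in each AM sample. Numbers are replicate numbers, the line is the mean and the bar beside it ± 1 SD. Clec4a2, Clec4a3 and Clec4b1 step down and Clec4d and Clec5a step up from CRE- to CD11b- to CD11b+ AMs without overlap, and Clec4n is highest in CD11b- AMs.

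In KCs the genes of the Dectin-2 and DCIR cluster that fell in AMs did not fall. Clec4b1 had 11.7 to 33.8 CPM (median 20.7) in CRE- KCs, 24.5 to 47.6 CPM (median 28.3) in Tim4+ KCs and 41.8 to 60.8 CPM (median 54.7) in Tim4- KCs, where every sample lay above every control (log2 fold change 1.29, SE 0.22, adjusted p = 2.08e-04). Clec4a2 had 76.8 to 132 CPM (median 106), 129.9 to 166 CPM (median 150.1) and 178 to 236 CPM (median 202), and its Tim4- samples lay above all samples of the other KC groups although the change was under the fold-change limit (log2 fold change 0.93, SE 0.11). Clec4a1, with 78.9 to 149 CPM (median 95.5), 108 to 166 CPM (median 118) and 147 to 202 CPM (median 162), had a log2 fold change of 0.73 in Tim4- KCs, also under the limit. Clec4a3, with 272 to 368 CPM (median 329), 289 to 373 CPM (median 319.7) and 299 to 503 CPM (median 359.9), was not called, nor was Clec4n, with 235 to 326 CPM (median 265), 363 to 552 CPM (median 489.8) and 302 to 479 CPM (median 377) (log2 fold change 0.77 in Tim4+ and 0.50 in Tim4- KCs). Clec4d and Clec4e were at 1.53 and 0.706 CPM on average in CRE- KCs and were not called in CRE+ KCs. Clec4a4, a low member that shares 15.7% of its 50-base words with Clec4a2, rose in both CRE+ KC groups: it had 0.307 to 1.77 CPM in CRE- KCs, 0.626 to 6.68 in Tim4+ KCs (log2 fold change 2.12, SE 0.55, adjusted p = 0.0217) and 2.50 to 11.7 in Tim4- KCs (log2 fold change 2.63). The first of these calls was lost when any of 5 libraries was left out, with adjusted p from 0.0504 to 0.0573. It was also lost with limma-voom (adjusted p = 0.119), in replicates 1 to 4 of each KC group (adjusted p = 0.324) and with all 33 samples in the fit (adjusted p = 0.0502).

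The difference between tissues was tested directly, as the mean change of both CRE+ KC groups less that of both CRE+ AM groups. Of 30 members 5 were higher in this contrast (Clec4a2, Clec4a3, Clec4b1, Clec2d and Clec4f) and 2 lower (Clec4d and Clec5a), against 3.5% and 4.65% of 13294 genes. Clec4b1 differed by 3.67 (SE 0.28), Clec4a2 by 3.03 (SE 0.16) and Clec4a3 by 1.88 (SE 0.14) on the log2 scale, each higher in KCs. Clec4d differed by -2.50 (SE 0.42). The value for Clec4f, 3.02, rests on 29 reads in all CRE- AMs against 2 in CD11b+ AMs and none in CD11b- AMs, and the call was lost with limma-voom, so it compares a high KC level with traces.

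Clec5a, the DAP12-coupled receptor MDL-1 that lies apart from the clusters on chromosome 6, rose in both tissues. It had 25.9, 23.1, 32.6, 23.3 and 23.9 CPM in CRE- AMs, 148, 137, 138, 122 and 131 CPM in CD11b- AMs and 264, 268, 244, 221 and 247 CPM in CD11b+ AMs, without overlap (log2 fold change in CD11b- AMs 2.39, SE 0.09, adjusted p = 8.65e-13; in CD11b+ AMs 3.26, SE 0.10). In KCs it had 0.307 to 2.80 CPM (median 1.43) in CRE- KCs, 0.468 to 4.59 CPM (median 2.79) in Tim4+ KCs and 1.63 to 13.4 CPM (median 4.53) in Tim4- KCs, where it was called (log2 fold change 1.98, SE 0.58, adjusted p = 0.0154) but lost without replicate 4 of the Tim4- KCs and with limma-voom. Its change in AMs exceeded that in KCs (contrast on the log2 scale -1.40, adjusted p = 0.0492), a call near the threshold that was lost in 24 of the 33 fits that left out 1 library.

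Markers of neutrophils rose in both CRE+ AM groups, and those of monocytes mainly in CD11b+ AMs, beside Clec4d and Clec5a. Of the 6 neutrophil markers tested, 5 were called higher in CD11b- AMs, as were all 6 in CD11b+ AMs, beside 3.98% and 9.57% of all genes. Their sum over 7 genes was 54.7 to 74.9 CPM in CRE- AMs, 937 to 2523 in CD11b- AMs and 7992 to 10364 in CD11b+ AMs. Ly6g, which defines neutrophils, was not analysed here, and Camp was at 0 in CD11b- AMs. S100a8 alone had 2.81 to 6.10, 366 to 1244 and 4098 to 5235 CPM. The monocyte markers summed to 6.03 to 11.0, 11.3 to 25.4 and 85.8 to 282 CPM in CRE-, CD11b- and CD11b+ AMs. Of 5 tested, 1 was called higher in CD11b- AMs and 5 in CD11b+ AMs, beside 3.98% and 9.57% of all genes. Vcan was at 0 in both CRE+ AM groups. The 7 dendritic cell markers summed to 61.3 to 103, 170.3 to 218 and 416 to 664 CPM in CRE-, CD11b- and CD11b+ AMs, and the 6 lung epithelial markers to 31.4 to 37.9, 187 to 326 and 948 to 1358 CPM. Of these 6, 3 were called higher in CD11b- AMs and 3 in CD11b+ AMs, beside 3.98% and 9.57% of all genes. They include Epcam, whose protein the study found on AMs that had deleted Zeb2. Whether neutrophils, monocytes, dendritic cells or epithelial cells contribute to the lectin changes was not tested.

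Lectins that AMs hardly carry appeared at low levels in CD11b+ AMs. Cd209f had 0, 0, 0.0924, 0.144 and 0.102 CPM in CRE- AMs and 3.90, 3.73, 1.10, 6.80 and 4.26 CPM in CD11b+ AMs, where every sample lay above every control (log2 fold change 5.74, SE 1.004, adjusted p = 9.77e-05). Clec10a, the galactose lectin MGL1, had 0, 0.685, 0.231, 1.68 and 0 CPM and 3.54, 3.99, 2.05, 8.33 and 3.91 CPM (log2 fold change 3.04, SE 0.91, adjusted p = 0.0102), a call lost with DESeq2, and it shares 9.02% of its 50-base words with Mgl2 and other loci. In KCs it was at 12.5 to 17.8 CPM (median 14.6) in CRE- KCs, 7.83 to 14.1 CPM in Tim4+ and 6.89 to 18.7 CPM in Tim4- KCs and was not called. Cd209a had 0.403, 0.489, 0.185, 0 and 0 CPM and 1.34, 1.84, 0.157, 2.71 and 2.98 CPM (log2 fold change 3.004, SE 0.92, adjusted p = 0.0123). Cd209g had no read in CRE- AMs and 0.105 to 1.28 CPM in CD11b+ AMs, at least 24.4-fold above the level that 3 reads over the control group would give. Cd209d, likewise without a read in CRE- AMs, was at least 18.2-fold above that level.

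KC markers were read in the same libraries, and the 8 summed to 414 to 623, 982 to 1149 and 1004 to 1349 CPM in CRE-, CD11b- and CD11b+ AMs. Of 7 tested, 1 was higher in CD11b- AMs and 4 in CD11b+ AMs, beside 3.98% and 9.57% of all genes. Some of them made up only a small part of these sums. Folr2 had 0 to 0.144 CPM in CRE- AMs and 3.10 to 13.01 in CD11b+ AMs, Cd163 had 0 to 0.370 and 2.56 to 10.9, and Timd4 had 0 to 0.0481 and 0.840 to 4.51. Clec4f, which defines KCs, had 2 reads in all 5 CD11b+ libraries. Their part in the Cd209 values of CD11b+ AMs was not tested. Cd209b fell from 2.15, 5.14, 4.07, 3.18 and 7.82 CPM in CRE- AMs to 0.355, 0.613, 0.0468, 1.39 and 0.397 CPM in CD11b- AMs (log2 fold change -3.004, SE 0.73, adjusted p = 0.00470) and was not called in CD11b+ AMs (0.975, 1.07, 0.105, 4.46 and 3.09 CPM), although it passed as lower there with limma-voom (adjusted p = 0.0295) and with the replicate block (adjusted p = 0.027).

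Of the 5 members of the Dectin-1 cluster tested, none was called in CRE+ over CRE- KCs or in CD11b- AMs. In CD11b+ AMs 1 was higher (Clec12a) and 1 lower (Clec1b), against 9.57% and 5.68% of all genes. The median log2 fold change of these 5 in CD11b+ AMs was -1.32, beside -0.005 over all genes. Clec7a and Clec12a, the most abundant of them there, had -0.34 and 1.01. Clec1b, Clec1a and Clec9a lay at only 1.60, 1.11 and 0.240 CPM on average in CD11b+ AMs. Clec7a had 308 to 506 CPM in CRE- KCs, 368 to 561 in Tim4+ and 473 to 603 in Tim4- KCs (log2 fold change 0.44 in the last), and 1136 to 1295, 1225 to 1568 and 741 to 1106 CPM in CRE-, CD11b- and CD11b+ AMs (log2 fold change -0.34 in the last). Clec7a is annotated as a polymorphic pseudogene in GENCODE M21, a label of the annotation only. Clec12a, an inhibitory receptor for uric acid crystals, had 278 to 406 CPM (median 370.4), 327 to 418 CPM (median 371) and 365 to 461 CPM (median 386) in the KC groups. In AMs it rose from 51.1, 53.6, 43.9, 50.2 and 51.3 CPM in controls to 123, 94.9, 89.1, 90.7 and 110.3 CPM in CD11b+ AMs, at the fold-change limit (log2 fold change 1.01, SE 0.11, adjusted p = 1.57e-07), and it was under that limit with limma-voom, with the replicate block and without replicate 1 or 5 of the CD11b+ AMs or replicate 3 of the CRE- AMs. CD11b- AMs had 68.1, 55.0, 52.8, 51.3 and 67.0 CPM.

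Clec1b (CLEC-2), the podoplanin receptor best known from platelets and also carried by KCs, had 322 to 482 CPM (median 399.5) in CRE- KCs, 256 to 337 CPM (median 292) in Tim4+ KCs and 247 to 364 CPM (median 288) in Tim4- KCs, a shift below the fold-change limit in both (log2 fold change -0.47 and -0.49, adjusted p = 0.00470 and 0.00109). In AMs it was low, at 5.33, 6.60, 4.99, 7.08 and 4.55 CPM in controls, 14.8, 8.18, 5.71, 6.19 and 5.91 CPM in CD11b- AMs and 1.89, 1.99, 0.787, 1.17 and 2.16 CPM in CD11b+ AMs, where it fell (log2 fold change -1.85, SE 0.32, adjusted p = 8.09e-05). The 5 platelet markers summed to 32.1 to 69.9 CPM in CRE- KCs, 38.6 to 81.4 in Tim4+ and 51.7 to 109 in Tim4- KCs. Clec9a, a dead-cell receptor of dendritic cells whose exons overlap those of Clec1b on the same strand, had 2.73 to 5.62 CPM in CRE- KCs and at most 1.71 CPM in CRE- AMs and was called only in that comparison. Clec1a, an endothelial and myeloid lectin, was lower in Tim4- than in Tim4+ KCs (1.42 to 4.10 against 2.68 to 9.32 CPM; log2 fold change -1.48, SE 0.33, adjusted p = 0.00475). In CD11b+ AMs Clec1a was not called (1.84, 3.03, 2.31, 3.66 and 2.86 CPM in CRE- AMs and 1.10, 0, 1.05, 2.39 and 0.993 CPM in CD11b+ AMs, log2 fold change -1.32, SE 0.57, adjusted p = 0.0708), but it passed as lower with DESeq2, with limma-voom, with all 33 samples in the fit and without replicate 4 of the CD11b+ AMs.

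Of the Clec2 genes, which encode ligands of the NKR-P1 receptors of NK cells, Clec2i (Clr-g) rose in both CRE+ KC groups. It had 9.32 to 13.2 CPM (median 11.3) in CRE- KCs, 22.4 to 31.1 CPM (median 30.4) in Tim4+ KCs (log2 fold change 1.35, SE 0.15, adjusted p = 5.75e-06) and 25.5 to 53.0 CPM (median 32.5) in Tim4- KCs (log2 fold change 1.65, SE 0.15, adjusted p = 1.26e-07). Every CRE+ sample lay above every control, and the CRE+ groups overlapped each other. In AMs it had 4 reads in all CRE- libraries, 1 in CD11b- and 83 in CD11b+ libraries. Clec2d (Clr-b), at 0.431 to 1.83 CPM (median 1.07) in CRE- KCs, was not called in KCs. It fell in CD11b+ AMs, from 0.941, 2.01, 1.06, 1.30 and 2.20 CPM to 0, 0.102, 0.0525, 0.265 and 0.117 CPM (log2 fold change -3.72, SE 0.75, adjusted p = 4.31e-04). Its call against CD11b- AMs (log2 fold change -2.27, SE 0.75, adjusted p = 0.0240) was lost with limma-voom, with the replicate block (adjusted p = 0.0599) and without replicate 1 or 3 of either CRE+ AM group (adjusted p from 0.0540 to 0.0820). Clec2l reached 1.02 CPM in CRE- AMs and was not called. The T and NK cell markers, which include an NKR-P1 gene, summed to at most 44.0 CPM in any KC library.

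Clec16a, an endosomal protein that carries the family symbol but is not known as a sugar receptor, had 3.49 to 6.17 CPM in CRE- KCs and 16.1, 16.7, 22.9, 20.1 and 21.6 CPM in CRE- AMs (log2 fold change of KCs over AMs -1.93, SE 0.18, adjusted p = 2.36e-07). Its change in CRE+ AMs was under the fold-change limit (log2 fold change -0.53 and -0.82). The remaining 13 members stayed under 1 CPM on average in every group. Clec18a and Clec2e had no read. Cd209c, Cd209e and Clec11a passed the filter somewhere without a call, and Cd209d, Clec12b, Clec2f, Clec2g, Clec2h, Clec3a, Clec3b and Clec4b2 entered no comparison.

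Other genes with a C-type lectin domain and the signalling partners of these receptors were counted from lists. Of 23 other lectin-domain genes tested in KCs, 1 was higher (Klrb1b) and 2 lower (Colec12 and Pla2r1) in Tim4- KCs, against 3.43% and 5.39% of all genes, and none was called in Tim4+ KCs. Klrb1b and Pla2r1 lay under 10 CPM and are named after their values were seen. Colec12, a scavenger receptor of the collectin group, had 30.2 to 70.4 CPM (median 39.5) in CRE- KCs and 4.70 to 9.49 CPM (median 6.202) in Tim4- KCs, where it fell (log2 fold change -2.78, SE 0.21, adjusted p = 5.57e-09), without overlap. Of 14 tested in AMs, 2 were higher in CD11b- AMs (Cd69 and Cd93), against 3.98% of all genes, and 6 were higher and 2 lower in CD11b+ AMs, against 9.57% and 5.68%. Cd69, a retention and activation receptor, had 20.4, 21.8, 13.03, 20.5 and 23.9 CPM in CRE- AMs and 169, 175, 152, 169.7 and 162 CPM in CD11b+ AMs (log2 fold change 3.04, SE 0.17, adjusted p = 1.90e-11), and Cd93 had 18.8 to 29.98 and 105 to 161 CPM.

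All 19 signalling partners were tested: 1 was higher in Tim4+ KCs, 1 in Tim4- KCs, none in CD11b- AMs and 1 in CD11b+ AMs (Vav3, log2 fold change 1.03), with none lower, against 1.94%, 3.43%, 3.98% and 9.57% of all genes called higher, and their median log2 fold change was between -0.01 and 0.12 in the comparisons with controls. The gene called in KCs was Lsp1, an actin-binding protein of the DC-SIGN complex. It had 12.4 to 23.8 CPM (median 15.6) in CRE- KCs, 113 to 207 CPM (median 154) in Tim4+ KCs and 123 to 383 CPM (median 262) in Tim4- KCs (log2 fold change in Tim4+ KCs 3.24, SE 0.22, adjusted p = 4.68e-09; in Tim4- KCs 3.97, SE 0.23), beside 822, 789.7, 866, 878 and 947 CPM in CRE- AMs. The adaptors and kinases behind the receptors above, such as Fcer1g, Tyrobp, Syk and Ptpn6, were not called in any comparison of CRE+ with CRE- macs.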

How the data were processed

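Kupffer cells and alveolar macs were profiled by bulk RNA-seq in 33 samples. Per the study's methods and the submitters' processing notes, the authors trimmed reads with Trimmomatic 0.35, aligned them to mm10 with TopHat2 2.1.0, handled alignments with SAMtools 0.1.18, checked quality with FastQC 0.11.4, and deposited raw HTSeq counts per gene symbol. The annotation, the HTSeq version and strandedness of counting were not given in the sources used here. Tally lines, such as reads on no gene (4.52 to 8.90% of all), were removed. From the counts of 24421 genes, TMM normalisation and edgeR 4.0.16 quasi-likelihood tests (R 4.3.3, filterByExpr, Benjamini-Hochberg adjustment over all genes tested) were computed on the 18 KC, 15 AM or 11 control samples, or all 33 for the difference between tissues. Calls used limits of 0.05 for the adjusted p and 1 for the size of the log2 fold change. The sources do not say which replicates came from separate mice, so p-values measure the spread between these samples. No 2 libraries of a group agreed within sampling noise.

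Members described by name had a mean of at least 1 CPM in a group, and sample values were given for those of at least 10 CPM that were called. They were also given for some members of lower level, among them Cd209a, Cd209b, Clec1a and Clec2d. The members and lists were chosen with earlier results of these data known. The test was checked on simulated counts. Alternatives were DESeq2 1.42.0, limma-voom (limma 3.58.1), RLE normalisation, other filters, no fold-change limit, other sample sets, a replicate block and leaving out each library.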

Additional observations from a re-analysis of the deposited data

Results flagged for a closer look

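Of 121 pairs of a member and a group of 5 or 6 samples, 10 held 1 sample far from the others by Dixon's criterion, which chance meets in about 1 of 20 groups. In Tim4- KCs replicate 1, the shallowest of the 33 libraries, stood apart for Cd207 (2584 CPM), Clec1b (364 CPM) and Clec4a4 (11.7 CPM). In Tim4+ KCs the samples that stood apart were replicate 1 for Clec9a (2.64 CPM), replicate 2 for Clec2i (22.4 CPM) and replicate 4 for Clec4e (7.29 CPM). In CRE- KCs they were replicate 2 for Clec12a (278.0 CPM) and replicate 4 for Clec4a1 (149 CPM). In AMs they were replicate 1 of the CD11b- AMs for Clec1b (14.8 CPM) and replicate 3 of the CRE- AMs for Clec5a (32.6 CPM).

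The mean change of CRE+ over CRE- macs differed between liver and lung for 7 members in a test of that difference across all 33 samples. On the log2 scale it was higher in KCs for Clec4b1 by 3.67, Clec4a2 by 3.03, Clec4f by 3.02 on traces in AMs, Clec2d by 2.62 and Clec4a3 by 1.88, and the contrast was -2.50 for Clec4d and -1.40 for Clec5a.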

How the results depend on the processing

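No single-gene value that was called in the main fit or in an alternative had opposite signs in those fits. Values called in neither were not checked for direction. RLE normalisation left all 194 single-gene values on their side of the threshold. The numbers of members called moved by more than 1.5 times as follows. For Tim4+ against CRE- KCs, 1 was higher with limma-voom, with a minimum of 10 counts in every sample, with all 33 samples in the fit and in replicates 1 to 4, and without the fold-change limit 4 were higher and 2 lower. For Tim4- against CRE- KCs, 3 were higher with limma-voom and with a minimum of 10 counts, and 10 without the fold-change limit. For Tim4- against Tim4+ KCs, 2 were higher with DESeq2, 4 without the limit and 0 when only those groups were fitted. For CD11b- AMs, 1 was lower with a minimum of 10 counts, 5 without the limit and 4 with all 33 samples. For CD11b+ AMs, 4 were higher with a minimum of 10 counts, and 8 were lower without the limit and with all 33 samples. Between CD11b+ and CD11b- AMs 2 were higher with a minimum of 10 counts, as were 3 between the controls. For the difference between tissues, 3 were higher with a minimum of 10 counts and 8 without the limit, and 5 were lower with DESeq2, 1 with limma-voom, 1 without a filter, 0 with a minimum of 10 counts and 4 with the replicate block. A minimum of 10 counts tests fewer members by construction.

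Leaving out 1 library at a time gave 1 to 2 members higher and 1 lower in Tim4+ KCs, 4 to 6 and 6 to 7 in Tim4- KCs, 0 to 2 and 5 to 6 between Tim4- and Tim4+ KCs, 2 and 2 to 4 in CD11b- AMs, 6 to 7 and 5 to 6 in CD11b+ AMs, 5 to 6 and 4 to 5 between those, 12 to 15 and 6 to 7 between the controls, and 5 to 6 and 1 to 3 for the difference between tissues. Of 2735 single-gene values, 2648 stayed on their side of the threshold. The replicate numbers are not stated to pair the samples. Same-numbered samples deviated together most between Tim4- and Tim4+ KCs (mean correlation 0.185, lowest 0.0976), where 6 of 6 correlated best with their own number. Between CD11b+ and CD11b- AMs the mean was 0.0934 (lowest 0.0617), and 5 of 5 did so. In the other comparisons of groups not all did so. The main tests treated all samples as unpaired. With the replicate number as a block, 184 of 194 single-gene values stayed on their side, 5 lost a call and 5 gained one.

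Depth limits the low members most, since 10 of 40 could not be tested, and levels under 1 CPM rest on few reads.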

Other observations

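Cd207 varied within the KC groups more than Clec4f did. In CRE- KCs replicates 1 to 6 had 606, 430.0, 818, 445, 761 and 420.0 CPM, in Tim4+ KCs 951, 371, 702, 255, 532 and 272 CPM, and in Tim4- KCs 2584, 1192, 1134, 579.9, 1108 and 529.7 CPM. Replicates 1, 3 and 5 were above replicates 2, 4 and 6 in both the CRE- and the Tim4+ KCs, which was seen in the values and not tested. The labels do not say what a number shared between groups stands for.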
